A study of Mus musculus with 4 samples.

Results

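The renal pelvis and the tip of the papilla are lined by an epithelium that meets the urine leaving the collecting ducts, and the nuclei described here were sought in that lining. A nucleus was taken as a pelvic-gene nucleus when it held a unique molecular identifier (UMI, 1 captured mRNA molecule) of at least 2 of 7 genes of pelvic and urothelial epithelium (Upk1b, Upk3b, Psca, Krt19, Krt7, Krt5 and Fxyd3). It was also allowed at most 2 UMIs each of Aqp2 (collecting duct), Slc12a1 (thick ascending limb) and Lrp2 (proximal tubule). The members were thus chosen by the measured UMIs of these genes, and 416 of 27343 nuclei that passed the study's filters met the rule, 1.52% of all.

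The nuclei came from kidneys of 12-week-old male mice by single-nucleus RNA sequencing, with 1 library per mouse and 2 mice per genotype. Both genotypes carried Tfap2a fl/fl, with loxP sites around part of the gene for the transcription factor AP-2 alpha. The knockout mice were also Hoxb7Cre+, a Cre that per the study recombines in collecting ducts and the lining of the lower urinary tract, and the controls were littermates without Cre. The libraries held a middle slice of the kidney with the cortex trimmed away, so how much papilla and pelvis entered each one depended on the cut. Because each mouse gave 1 library, an effect of a library and of its mouse cannot be told apart.

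Urothelium is a layered barrier. Basal cells (Krt5, Krt14, Trp63) rest on the basement membrane, and superficial umbrella cells carry on their urine side plaques built of uroplakins, which pair Upk1a with Upk2 and Upk1b with Upk3a. Next to it, the papilla is covered by a simple epithelium continuous with the inner medullary collecting duct, and the thin limbs of the loop of Henle run in the same tissue. Cells here face high and changing salt and urea, against which they hold organic osmolytes such as sorbitol, made by aldose reductase (Akr1b3), and the small heat shock protein alpha B-crystallin (Cryab).

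Library totals ran from 22179410 to 44964099 UMIs and kept nuclei from 5430 to 7998 per mouse. The members had a median of 3404.5 UMIs and 1958.5 genes, against 2628 and 1578 over all kept nuclei. Per mouse there were 91 and 190 members in control 1 and control 2 and 51 and 84 in knockout 1 and knockout 2. The 4 libraries did not stand level in RNA quality: the members' median mitochondrial share was 1.34% and 0.573% in the controls and 0.854% and 0.279% in the knockouts. Free RNA, estimated from 9 proximal tubule genes on the assumption that members make none of them, came to 12.8% and 6.24% of the members' UMIs in the controls and 17.5% and 3.75% in the knockouts. Between 7 and 18 barcodes of kept nuclei were shared by any pair of libraries, none of them of members, and 10 members were called doublets.

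Psca and Krt7 carried most of the selection. Psca, a small surface protein of urothelium, had a UMI in 82.5% of members and the simple-epithelial keratin Krt7 in 78.6%. Krt19 was present in 52.4%, the uroplakins Upk3b in 46.4% and Upk1b in 30.05%, Fxyd3 in 21.2% and the basal keratin Krt5 in 13.9%. Many members met the rule only just: 178 (42.8%) had exactly 2 of the 7 genes, and 923 nuclei with 1 gene lay just outside. Across that border the share of nuclei with a UMI of Upk3a, a uroplakin that the rule did not use, went from 0.325% (1 gene) to 2.81% (2 genes), 21.9% (3 genes) and 56.2% (4 genes). Krt18, the partner of Krt8 in simple epithelia, was found in 21.7% of nuclei with 1 gene and 58.4% with 2. Spp1 did not follow that order, with 49%, 29.8%, 54.2% and 95.8% over 1, 2, 3 and 4 genes. Median depth rose over the same groups, at 2307, 2834.5, 3401 and 3719.5 UMIs. The part of depth in these shares was not tested.

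The 7 genes were also met in other cells. Among Lrp2-positive nuclei, which should lack these genes, 0.197% and 0.539% (controls) and 0.183% and 0.337% (knockouts) had at least 2 of them, at median depths of 3168 to 3747.5 UMIs. These shares lay below those of members, which ranged from 0.638% to 3.499% at median depths of 2901 to 3603 UMIs. Among Slc12a1-positive nuclei the shares were 0.861%, 1.33%, 0.433% and 1.15% in the same order, at median depths of 1853 to 2027 UMIs. The members' share of all kept nuclei was the higher one in each mouse, but the exact 95% intervals of the 2 shares overlapped in every mouse except control 2. The bases differ, since the kept nuclei include those that the limits on Aqp2, Slc12a1 and Lrp2 barred. Among nuclei with at most 2 UMIs of Lrp2, members made up 2.25% and 5.45% in the controls and 1.26% and 2.69% in the knockouts. On that base the intervals overlapped in knockout 1 alone.

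The label of deep medullary pelvic epithelium fitted only part of these nuclei. Clustering of the 416 members gave 7 clusters, and markers that the rule did not use named 3 of them. Cluster 4 (62 nuclei) was basal urothelium-like and cluster 5 (49 nuclei) intermediate and superficial urothelium-like, together 26.7% of members. Cluster 6 (24 nuclei) was intercalated cell-like, and the other clusters stayed unnamed and are called by their leading genes. Those were Cldn10-high (cluster 1, 106 nuclei), Heg1-high (cluster 2, 102 nuclei), Kirrel3-high (cluster 3, 64 nuclei) and Slc8a1-high (cluster 7, 9 nuclei). Upk1b was found in at least 20% of the nuclei of clusters 2, 4, 5 and 7, which held 222 nuclei (53.4%). It had not a single UMI in the 194 nuclei of clusters 1, 3 and 6. In the 106 nuclei of cluster 1, 0 nuclei with a UMI allow a share of up to 2.83%, which limits nuclei with a UMI and not nuclei that express the gene. For these reasons the nuclei are called by the rule and not by a cell type. Genes that set clusters apart also made them, so their values are given as a description without a test.

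**Figure D1:**
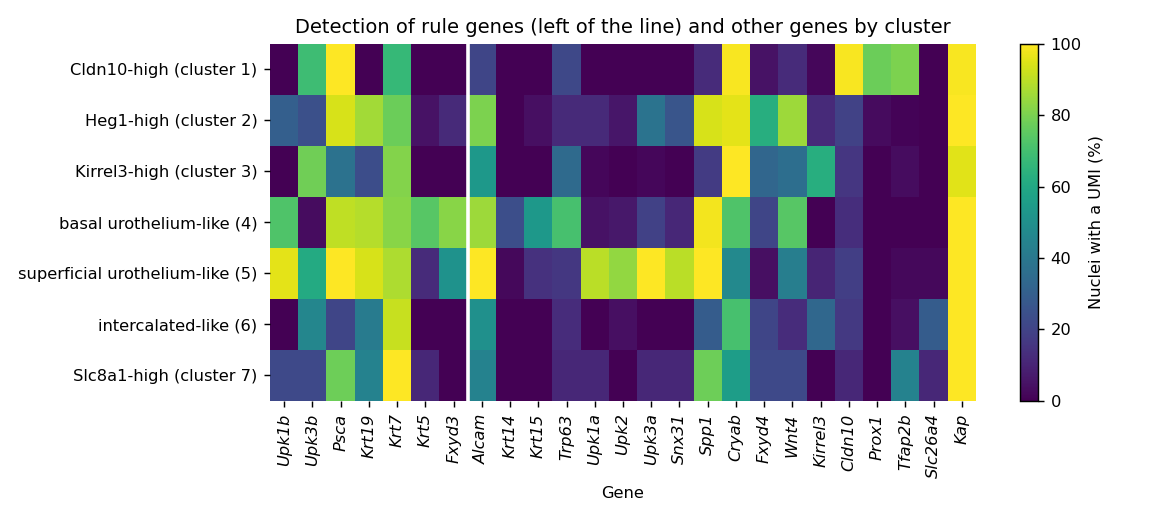
Percent of nuclei with a UMI (colour, 0 to 100%) of 25 genes (x axis) in the 7 clusters of pelvic-gene nuclei (y axis), with the 7 genes of the rule left of the white line. Upk1b and Krt19 were at 0 in cluster 1, Upk3a reached 100% in cluster 5, and Kap, a proximal tubule transcript, was found at 95.3% or more in clusters 1 to 5.

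Cluster 5 held the uroplakin plaque genes. Upk3a was detected in 100% of its 49 nuclei, Upk1b in 95.9%, Upk1a in 89.8% and Upk2 in 83.7%. The level of Upk3a there was 4461 and 3074 in the control and 5882 and 2765 in the knockout mice, in UMIs per 1000000 UMIs of the cluster (CPM), the unit of all levels below. Its range over mice in the Heg1-high cluster was 47.7 to 1232 and in the basal cluster 0 to 232, so cluster 5 was above both in each mouse. The cluster further held Snx31 (574 to 1826 over the 4 mice), the cornified envelope precursor Sprr1a (1649.8 to 6355) and the flavin monooxygenase Fmo5 (1318 to 2791). Simple keratins were abundant, with Krt18 at 1148 to 2350.3 and Krt8 at 968 to 1350.4.

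Cluster 4 was led by the basal keratins. Krt5 was found in 74.2% of its nuclei, against 12.2% in cluster 5. Krt15 ran at 1782 and 363 in the control and 1632 and 2806 in the knockout mice, the values of control 2 being the lowest. Trp63, the transcription factor that keeps basal cells in many stratified epithelia, was detected in 71% of nuclei at 239 to 757. Krt14 marked a subset, 24.2% of nuclei. The atypical cadherin Cdh13 (644 to 866) and the mechanosensitive channel Piezo2 (463 to 709) were nearly level over mice here, and in cluster 5 they reached only 22.9 to 287 and 68.6 to 251. Ly6d was uneven: 0 and 1676 in the control and 692 and 4567 in the knockout mice.

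The Heg1-high cluster mixed pelvic and collecting duct genes. Psca was present in 94.1% and Krt19 in 86.3% of its nuclei, and Upk1b in 30.4%. Besides Heg1, it was led by Muc20, Elf5 and Fxyd4, a regulator of the sodium pump in the collecting duct (317 to 621). The basolateral water channel Aqp4 (114 to 242) and the urea transporter Slc14a2 (11.9 to 165), both known from the inner medullary collecting duct, had UMIs in every mouse. Wnt4, a Wnt ligand of the medullary stroma and collecting duct, stood at 656 to 869.8. With 4 of 6 superficial urothelial markers detected and 3 of 5 of the inner medullary collecting duct, no name was given, and at a finer clustering its largest piece held only 56.9% of its nuclei.

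**Figure D2:**
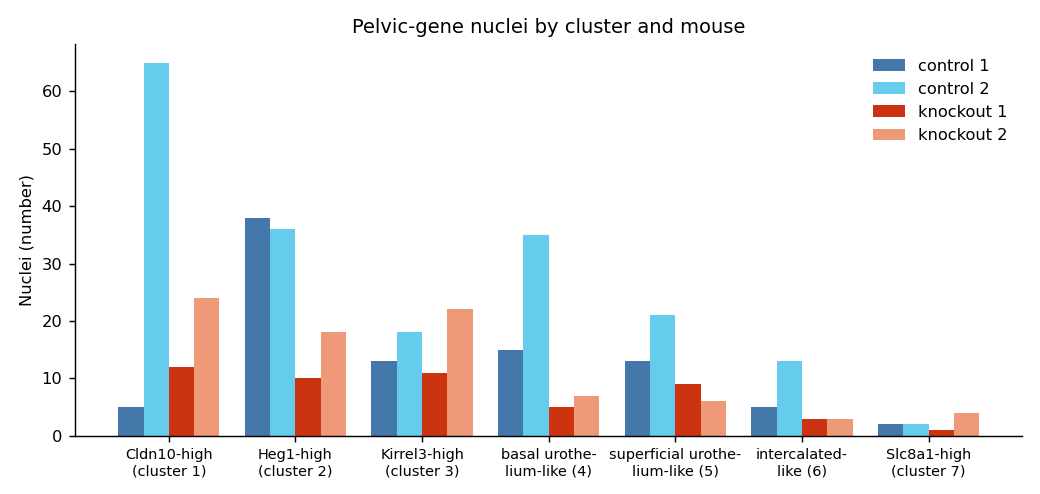
Number of pelvic-gene nuclei (y axis) in each of the 7 clusters (x axis), with 1 bar per mouse. The Cldn10-high cluster held 65 nuclei of control 2 and 5 of control 1, while the Heg1-high cluster held 38 and 36.

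In clusters 1 and 3 none of the 6 superficial urothelial markers outside the rule passed the limit for a detected marker (5% of nuclei and 2-fold over other kept nuclei), and of the 4 basal ones Trp63 alone did. Upk1a and Upk3a each had 0 UMIs in cluster 1 and 1 in cluster 3. The Cldn10-high cluster carried 2 of 6 thick ascending limb markers (Cldn16 and Cldn10), and so had no name. It expressed Cldn10 at 2838 to 3661, besides Prox1, Kcnh7 and Tfap2b. Psca was present in each of its 106 nuclei, and Krt19, Krt5 and Fxyd3 had no UMI. As Psca is a gene of the rule and these nuclei could enter only through Psca, Upk3b and Krt7, its presence there was tied to the selection. The rule asks only for a UMI and does not set the level. Psca had 1494 UMIs in these nuclei, beside 101 of Upk3b and 110 of Krt7. The Kirrel3-high cluster was met mostly through Upk3b with Krt7 (32 of 64 nuclei) and expressed Kirrel3, Sorcs3, Hsd11b1 and the highest Cryab of the larger clusters. Sptssb, one of the 5 thin limb markers, was at 624 to 1255 in cluster 1 and 1034 to 1401 in cluster 3.

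The smaller clusters brought in other tubule cells. In cluster 6 all 5 intercalated cell markers were detected, but Atp6v1g3 in 41.7% of nuclei, Atp6v0d2 in 37.5% and Slc26a4 (pendrin) in only 7 of 24. The thin limb and proximal water channel Aqp1 was found in 66.7% and Sorcs3, a leading gene of cluster 3, in 75%. The name of cluster 6 thus rests on part of its nuclei. Cluster 7 carried 4 of 4 distal convoluted tubule markers and 3 of 4 of the connecting tubule, and 3 of its 9 nuclei were called doublets. Kap, an androgen-dependent proximal tubule transcript, differed between mice more than between clusters. Over clusters 1 to 5 it lay between 10251 and 13834 in control 1 and between 894 and 2477 in knockout 2.

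Osteopontin and alpha B-crystallin divided the members. Spp1, the secreted phosphoprotein osteopontin, reached 47954 and 42477 in the control and 87753 and 53402 in the knockout mice in the Heg1-high cluster. Its ranges were 24116 to 42206 in the basal and 17121 to 102392 in the superficial cluster, against 13.1 to 137 in the Cldn10-high and 14.4 to 92.3 in the Kirrel3-high cluster, and no mouse overlapped between the 2 kinds of cluster. Cryab ran the other way, from 26226 to 48696 in cluster 3 through 10006 to 17943 in cluster 1 and 9788 to 15100.3 in cluster 2 to 548 to 4056 and 90.4 to 579 in clusters 4 and 5. Akr1b3 had a like order, with 7025 to 11160 in cluster 3 and 395 to 2990.2 in cluster 5. Nfat5, the transcription factor that turns on osmolyte genes, did not differ beyond the spread over mice, with 753 to 1716 in cluster 1 and 804 to 1229 in cluster 5.

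**Figure D3:**
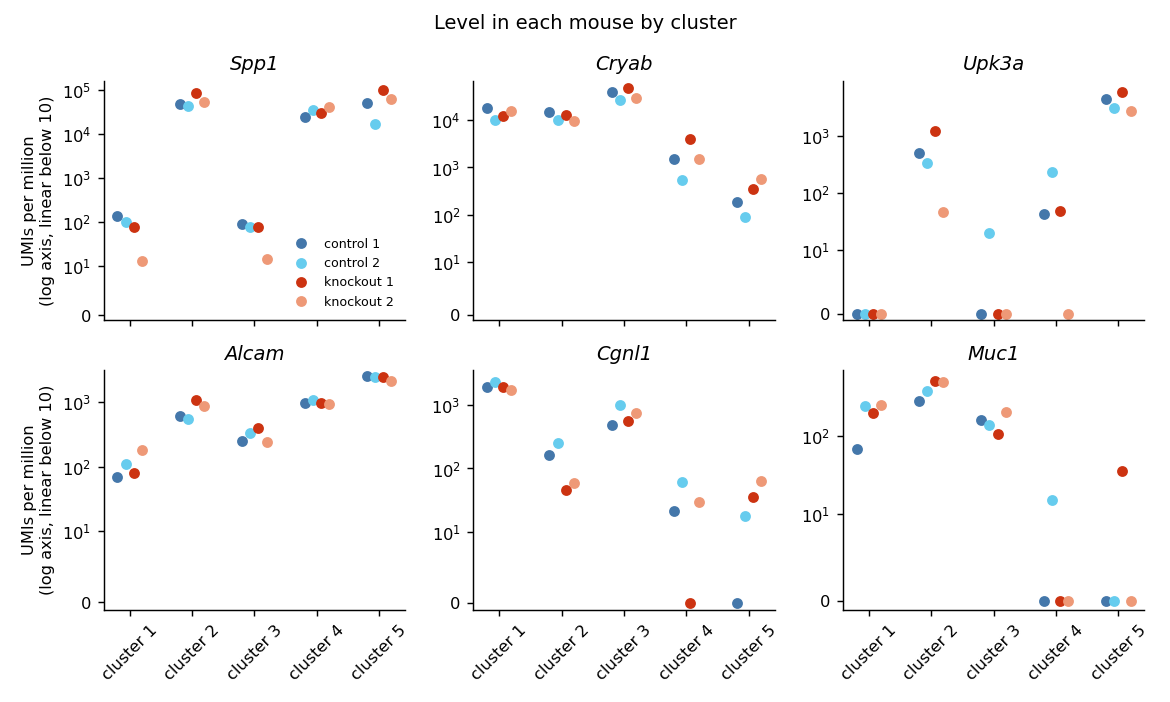
Level of 6 genes in UMIs per 1000000 UMIs of a cluster (y axis, logarithmic and linear below 10) in the 5 largest clusters (x axis), with 1 point per mouse. Spp1 lay at 137 or less in clusters 1 and 3 and at 17121 or more in clusters 2, 4 and 5 in every mouse, and Alcam was highest in cluster 5.

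As a summed list, cell adhesion genes were lower in clusters 1 and 3 than in clusters 2, 4 and 5 in every mouse. The summed tight junction and basement membrane lists did not follow that line. The 19 tight junction genes summed to 6690.3 to 7781 CPM in cluster 1, of which Cldn10 alone made 3104 CPM of 7247 over all its nuclei. They summed to 2730.4 to 3828 in cluster 3, 2649 to 3299.5 in cluster 5 and 1978 to 2328 in the basal cluster, so that clusters 3 and 5 overlapped. The junction protein Cgnl1 (paracingulin) was at 1739 to 2334 in cluster 1 and 0 to 61.8 in the basal cluster. The cell adhesion list summed to 2397 to 3165 and 3520.2 to 3738 in clusters 1 and 3, and to 7217 to 8415, 5239.9 to 7253 and 6536 to 9517 in clusters 2, 4 and 5. Alcam, an immunoglobulin-like adhesion molecule and one of the markers given for these cells, was 2608 and 2477 in the control and 2510.5 and 2122 in the knockout mice in cluster 5, the mice lying close to each other. It came to 955 to 1089 in cluster 4, 543 to 1095 in cluster 2, 245 to 398 in cluster 3 and 68.5 to 183 in cluster 1. The tetraspanin Cd9 was at 1845 to 2698 in cluster 2 and 39.4 to 205 in cluster 1. Epcam, also on the adhesion list, went the other way, at 669 to 1027 in cluster 1 and 651 to 1111 in cluster 3. It was 298 to 594 in cluster 4, while clusters 2 (456 to 907) and 5 (226 to 836) overlapped with clusters 1 and 3. The basement membrane list overlapped between cluster 3 (3870.2 to 7321) and the basal cluster (3851 to 4857), and its leading gene was Col4a3, a chain of the mature type IV collagen network, at 1417 to 3461 in cluster 1 and 18.1 to 287 in cluster 5.

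Compared with Aqp2-positive nuclei without sodium channel (540 nuclei with at least 3 UMIs of Aqp2, no UMI of Scnn1b or Scnn1g, at most 2 each of Slc12a1 and Lrp2 and fewer than 2 of the 7 genes), 15 genes outside the rule stood out by the lowest ratio over the 4 mice. Sprr1a was 385 to 1237 in members and 0 to 2.57 in the Aqp2-positive nuclei, and Upk3a 286 to 1296 and 0 to 3.63. Spp1 was 20577 to 44492 against 170.0 to 1122. The others were Sptssb, Snx31, Sorcs3, Cpe, Clu, Anxa3, Cdh13, Krt15, Piezo2, Lypd2, Gsta4 and Ly6d. No one of these was a gene of all members: among the 15, the share of members with a UMI ran from 10.6% (Krt15) to 58.7% (Spp1).

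The share of pelvic-gene nuclei did not separate the genotypes. It was 1.18% and 3.499% of kept nuclei in the controls (exact 95% binomial intervals 0.948 to 1.44% and 3.03 to 4.02%) and 0.638% and 1.36% in the knockouts (0.475 to 0.838% and 1.09 to 1.68%). The intervals cover counting error only, and knockout 2 lay above control 1. The means were 2.34% ± 1.64 (SD, n = 2) and 0.999% ± 0.511 (SD, n = 2), a log2 ratio of -1.23. A two-sided exact permutation test over mice gave p = 0.667, and with 2 against 2 mice it cannot go below 0.333. Without control 2 the log2 ratio was -0.24. Thinned to 1000 UMIs per nucleus, the shares were 0.784% and 2.15% in the controls and 0.540% and 0.943% in the knockouts, without 341 and 135 shallower control and 597 and 135 shallower knockout nuclei. Within the members and all nuclei with at least 3 UMIs of Aqp2, the shares were 21.1%, 27.0%, 13.5% and 29.7%. Fewer such nuclei and lower levels of the 7 genes cannot be told apart here.

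**Figure D4:**
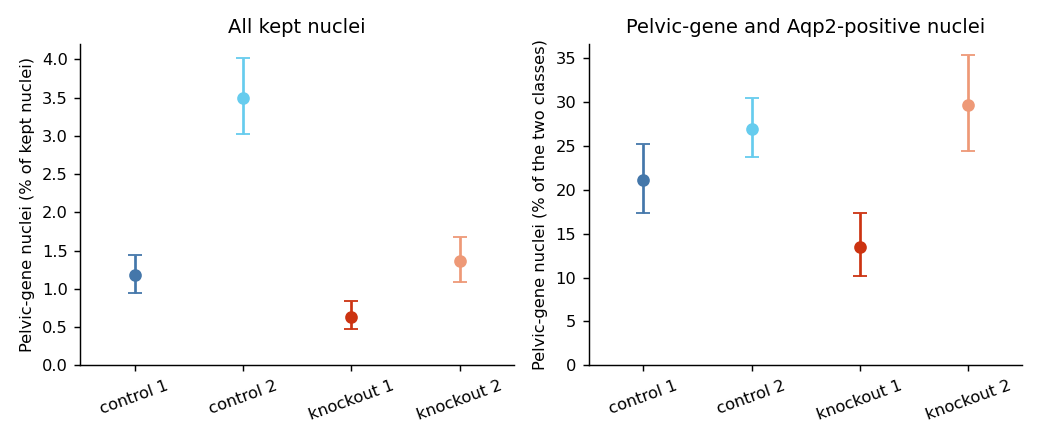
Share of pelvic-gene nuclei (y axis, percent) in each mouse (x axis), of all kept nuclei on the left and of pelvic-gene and Aqp2-positive nuclei on the right. Points are mice and bars are exact 95% binomial intervals, which cover counting error only. Control 2 stands highest on the left (3.499%) and knockout 2 on the right (29.7%).

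The clusters did not share 1 order of mice. Urothelium-like nuclei numbered 28 and 56 in the controls and 14 and 13 in the knockouts, and nuclei of clusters 1, 3 and 6 numbered 23 and 96 in the controls and 26 and 49 in the knockouts. The Cldn10-high cluster took 5.49% of the members of control 1 and 34.2% of those of control 2, with 23.5% and 28.6% in the knockouts. As a share of all kept nuclei, the Heg1-high cluster was 0.491% and 0.663% in the controls and 0.125% and 0.291% in the knockouts, the basal cluster 0.194% and 0.645% in the controls and 0.0625% and 0.113% in the knockouts and the superficial cluster 0.168% and 0.387% in the controls and 0.113% and 0.0971% in the knockouts, each lower in both knockouts than in both controls. The intercalated cell-like cluster was lower in both knockouts too. It was 0.0646% and 0.239% in the controls and 0.0375% and 0.0486% in the knockouts. The order was thus not particular to clusters with pelvic or urothelial genes. The Cldn10-high cluster (0.0646% and 1.2% in the controls and 0.15% and 0.389% in the knockouts) and the Kirrel3-high cluster (0.168% and 0.331% in the controls and 0.138% and 0.356% in the knockouts) overlapped. So did the Slc8a1-high cluster, at 0.0258% and 0.0368% in the controls and 0.0125% and 0.0648% in the knockouts. Cluster sizes were not tested, since the genes that define clusters may differ between genotypes.

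Tfap2a was sparse in these nuclei. It had 8 and 12 UMIs in the control and 1 and 0 in the knockout mice, or 23 and 16.9 CPM in the control and 5.84 and 0 in the knockout mice, with no overlap between the groups. Most came from the Heg1-high cluster (12 UMIs) and the basal cluster (6), and the fit gave log2 fold change -2.99 ± 1.14 (SE), unadjusted p = 0.0224, adjusted p = 1 by edgeR. In the Aqp2-positive nuclei the levels were 51.5 and 96.2 in the control and 82.3 and 116 in the knockout mice, with overlap. The libraries count the 3' end of a transcript, and an allele that lacks internal exons can still yield such reads, so these values do not check the deletion. The related Tfap2b was nearly confined to cluster 1, which held 244 of its 258 UMIs, at 753 and 835 in the control and 945 and 824 in the knockout mice. Its change over all members was 0.40 ± 0.55 (log2, SE), and without that cluster -1.31.

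No gene passed the test between genotypes. UMIs were summed over the members of each mouse, and among 11495 genes that reached 10 UMIs in total edgeR's quasi-likelihood test called 0 lower (0%) and 0 higher (0%) in the knockout at an adjusted p under 0.05. At an unadjusted p under 0.05 there were 240 lower (2.09%) and 165 higher (1.44%), and DESeq2 called 0 in both directions (43 and 25 unadjusted). Leaving out a mouse moved the counts: without knockout 1 there were 34 lower and 19 higher, without control 1 18 and 10, without knockout 2 2 and 6, and without control 2 0 and 0. The lone mouse then left in a group is assumed to vary like the others.

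The lower genes with the smallest p were Id3, Sgcz, Me1, Rgs5 and 4930469K13Rik. None of them passed the correction. Id3 (chromosome 4, 136143822 to 136145392, mm10) encodes an inhibitor of basic helix-loop-helix factors. It had 48 and 84 UMIs in the control and 5 and 10 in the knockout mice, or 138 and 118 CPM in the control and 29.2 and 31.7 in the knockout mice, the groups being apart (log2 fold change -2.001 ± 0.38 (SE), unadjusted p = 2.33e-04, adjusted p = 0.829 by edgeR). Its UMIs lay mainly in clusters 2 and 4: 165 and 127 in the control and 22.8 and 35.8 in the knockout mice in the Heg1-high and 365 and 332 in the control and 98.9 and 119 in the knockout mice in the basal cluster. The same direction was thus seen in both, on 1 and 3 UMIs in the knockouts for the first cluster and 2 and 4 for the second. In the Aqp2-positive nuclei the levels of Id3 were 178 and 101 in the control and 234 and 138 in the knockout mice, and the groups overlapped. Me1 (chromosome 9, 86581363 to 86695914), the cytosolic malic enzyme that yields NADPH, stood at 317 and 187 in the control and 93.4 and 63.5 in the knockout mice (log2 fold change -1.67 ± 0.39 (SE), unadjusted p = 0.00112, adjusted p = 1 by edgeR). Its highest levels lay in the Heg1-high cluster, with 578 and 411 in the control and 159.8 and 95.5 in the knockout mice.

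Sgcz, a sarcoglycan of the cell membrane (chromosome 8, 37517840 to 38661705), was a gene of the Cldn10-high cluster. That cluster held 140 of its 151 UMIs, with 13 and 126 in the 5 and 65 control nuclei and 0 and 1 in the 12 and 24 knockout nuclei. Over all members the fit gave log2 fold change -4.76 ± 0.92 (SE), unadjusted p = 2.50e-04, adjusted p = 0.829 by edgeR. Within the Cldn10-high cluster alone, a fit added after seeing the data, Sgcz was the 1 gene called lower among 5862 (-5.99 ± 0.95 log2, SE, adjusted p = 2.07e-06 by edgeR). The same gene was low in the knockouts outside the members: Slc12a1-positive nuclei had 1742 and 1789 CPM in the control and 42.1 and 95.4 in the knockout mice (-4.66 ± 0.43 log2, SE, adjusted p = 0.0788 by edgeR). Whether the mice differed at Sgcz itself, in strain background or in alleles other than Tfap2a, was not tested. In Lrp2-positive nuclei the change was -0.43 ± 0.28.

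Rgs5 and 4930469K13Rik rested on few nuclei. Rgs5, a regulator of G protein signalling, had 10 and 37 UMIs in the control and 1 and 0 in the knockout mice, 39 of them in the superficial urothelium-like cluster, which held 13 and 21 control and 9 and 6 knockout nuclei. The 63 control UMIs of 4930469K13Rik came from 4 nuclei, and 64 of its 65 UMIs lay in the intercalated cell-like cluster.

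The higher genes with the smallest p were Egfem1, Calb1, Upk3bl, Rnf180 and Ppef1, again none past the correction. Egfem1 had the smallest p of all genes, and all its 32 UMIs in the knockouts came from 3 nuclei of the Slc8a1-high cluster (log2 fold change 5.72 ± 0.77 (SE), unadjusted p = 9.55e-06, adjusted p = 0.11 by edgeR). Calb1, the calcium buffer calbindin of the distal nephron, had 13 and 43 UMIs in the control and 27 and 59 in the knockout mice, 115 of them in the 9 nuclei of the same cluster, which numbered 2 and 2 in the controls and 1 and 4 in the knockouts. Its log2 fold change of 1.81 ± 0.35 (SE) came down to 0.10 in nuclei with at least 3 of the 7 genes. Upk3bl, a uroplakin-like gene beside Upk3b (chromosome 5, 136057259 to 136076695), had a broader basis, with 73 of its UMIs in 34 nuclei of the Heg1-high cluster. Its level there was 57.1 and 84.3 in the control and 183 and 477 in the knockout mice. These levels rested on 9 and 16 UMIs in the control and 8 and 40 in the knockout mice. In a fit of that cluster alone, added after seeing the data, Upk3bl was the 1 gene called higher among 7861 (2.30 ± 0.46 log2, SE, adjusted p = 0.0133 by edgeR). Whether its reads are shared with the near copy Upk3b was not tested. UMIs of Upk3b and Upk3bl numbered 101 and 2 in cluster 1, 30 and 73 in cluster 2 and 72 and 0 in cluster 3. Rnf180, a ubiquitin ligase, had 34 of its 56 UMIs in the Kirrel3-high cluster, and Ppef1 31 of its 39 in the Cldn10-high cluster.

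Clu, the chaperone clusterin, was among the 15 genes that stood out in members. It was 299 and 238 CPM in the control and 747 and 552 in the knockout mice, both knockouts lying above both controls (log2 fold change 1.31 ± 0.32 (SE), unadjusted p = 0.00175, adjusted p = 1 by edgeR). In the superficial urothelium-like cluster it stood at 1189.5 and 732 in the control and 3084 and 2990.2 in the knockout mice and in the Heg1-high cluster at 298 and 79.1 in the control and 365 and 633 in the knockout mice. In the basal cluster it was 85.9 and 486 in the control and 445 and 657 in the knockout mice, and the groups overlapped. In a fit restricted to clusters 2, 4, 5 and 7, which was added after seeing the data, Clu, Egfem1 and Upk3bl were called higher and no gene lower.

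**Figure D5:**
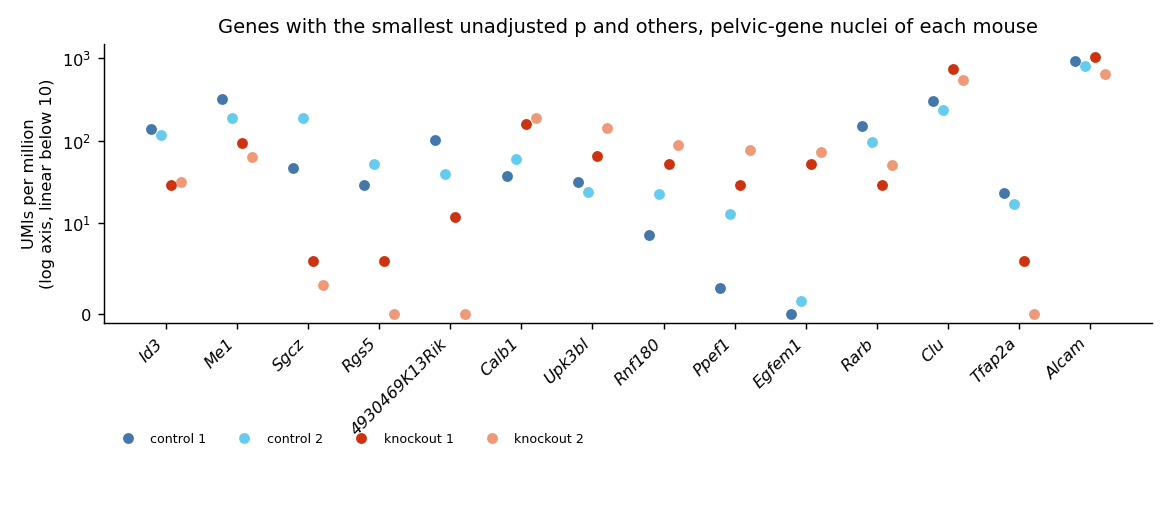
Level in UMIs per 1000000 UMIs of the members (y axis, logarithmic and linear below 10) of the 10 genes with the smallest unadjusted p and of Rarb, Clu, Tfap2a and Alcam (x axis), with 1 point per mouse. Id3 lay at 118 to 138 in the control and 29.2 to 31.7 in the knockout mice, whereas the genotypes overlapped for Alcam.

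No gene of cell adhesion or Wnt signaling was called in either direction. Alcam was 924 and 817 CPM in the control and 1045 and 650.4 in the knockout mice (log2 fold change -0.01 ± 0.34 (SE), unadjusted p = 0.971, adjusted p = 1 by edgeR), and knockout 1 was the highest of the 4 mice. Within the Heg1-high cluster it was 622 and 543 in the control and 1095 and 883 in the knockout mice, where the fit gave 0.76 ± 0.37 (log2, SE) with an adjusted p of 0.822 by edgeR. Wnt9b, a ligand of the collecting duct, had 4 and 2 UMIs in the control and 1 and 2 in the knockout mice, all 9 in the Heg1-high cluster, and was too low to enter the test. In the Aqp2-positive nuclei Wnt9b ran at 79.5 and 144 in the control and 118 and 210.3 in the knockout mice. Among 33 Wnt genes tested of 46, 16 had a negative and 17 a positive fold change, with a median of 0.05, and of 27 adhesion genes 14 and 13, with a median of -0.01, beside -0.02 over all genes tested. Wnt4, Ctnnb1 (beta-catenin), Lgr4 and Apc, the Wnt genes with most UMIs, had log2 fold changes of -0.26 ± 0.31, 0.21 ± 0.31, -0.29 ± 0.31 and -0.02 ± 0.31 (SE).

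In each of the other lists, too, 0 genes were called in either direction, and the counts that follow are at an unadjusted p under 0.05, to be read beside the 2.09% lower and 1.44% higher over all 11495 genes. Shares of lists this short move by several points with 1 gene. Of 24 uroplakin and urothelial transcription factor genes tested, 4 were lower (Upk1a, Upk2, Pparg and Grhl3) and 0 higher, with a median of -0.21. These names, like those that follow, were chosen after their values were seen. Upk1a had 392, 364, 245 and 66.6 CPM in control 1, control 2, knockout 1 and knockout 2. Upk3a, their partner in the plaque, was 800.4 and 611 in the control and 1296 and 286 in the knockout mice (0.17 ± 0.53 log2, SE), knockout 1 being the highest mouse. Pparg was 77.7 and 355 in the control and 52.5 and 76.1 in the knockout mice, so that control 2 alone stood clearly apart. Its log2 fold change was -2.32 ± 0.99 in cluster 4 and -1.90 ± 0.64 in cluster 5, but 1.73 ± 0.80 (SE) in cluster 2. Of the 5 superficial urothelial markers tested 4 were lower (Upk1a, Upk2, Grhl3 and Snx31), with a median of -1.09. Of these, Snx31 turned from -0.86 to 0.0899 (log2) in members with no UMI of Aqp2, Slc12a1 and Lrp2. Cluster 5, which carries these genes, made up 14.3% and 11.1% of the members in the controls and 17.6% and 7.14% in the knockouts. Within cluster 5 Upk1a was 2585 and 2188 in the control and 1363 and 643 in the knockout mice (-1.22 ± 0.58 log2, SE, adjusted p = 0.936 by edgeR).

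The same shares over all genes (2.09% lower and 1.44% higher) stand beside the next lists. Among 6 AP-2 genes and cofactors tested, Tfap2a and Cited2 were lower and 0 higher, with a median of -0.54. Cited2, a coactivator of AP-2 factors, stood at 173 and 153 in the control and 81.7 and 105 in the knockout mice (-0.74 ± 0.33 log2, SE). Of 15 tonicity and urea genes 2 were lower (Slc14a2 and Aqp1), and of 9 retinoic acid genes 1. That was Rarb, a retinoic acid receptor, with 149.7 and 95.7 CPM in the control and 29.2 and 50.8 in the knockout mice (log2 fold change -1.47 ± 0.41 (SE), unadjusted p = 0.00428, adjusted p = 1 by edgeR). The keratin and desmosome list had Dsg2 lower and Krt15 higher among 18 genes, tight junctions Marveld3 lower among 19, and adhesion Nectin3 lower and Cd151 higher among 27. In basement membrane (16 genes tested), Wnt signaling (33), prostaglandin (10), EGF family (10), innate defence (15) and immediate early and stress genes (12) there was none in either direction. Cryab, Akr1b3 and Nfat5 were at 0.51 ± 0.48, 0.37 ± 0.38 and -0.12 ± 0.38 (log2, SE).

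Marker lists of other cells were uneven over the mice. The proximal tubule markers, of which 8 of 9 were tested, summed to 10783 and 4457 CPM in the controls and 14562 and 1494 in the knockouts. The 5 intercalated markers summed to 795, 203, 1121 and 22.2 in the same order. Both lists overlapped between genotypes. Connecting tubule markers did not, with 464 and 1072 in the controls and 1828 and 1548 in the knockouts. Of their 3 tested genes, 2 (Calb1 and S100g) were higher at an unadjusted p under 0.05. S100g itself overlapped, at 115 and 50.7 in the controls and 525 and 88.8 in the knockouts. Over all its nuclei, cluster 7 summed to 34628 CPM of this list, and no other cluster exceeded 701. Its 9 nuclei numbered 2 and 2 in the controls and 1 and 4 in the knockouts, and 3 were called doublets. The part of these lists in the values above was not tested.

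Whether a change differed between the members and the Aqp2-positive nuclei without sodium channel was tested by the interaction of class and genotype. Of 13144 genes, 0 (0%) were called in either direction by edgeR, with 186 and 110 at an unadjusted p under 0.05. For Id3 the difference was -2.44 ± 0.57 (log2, SE, unadjusted p = 5.13e-04, adjusted p = 1 by edgeR) and for Tfap2a -3.40 ± 1.13 (unadjusted p = 0.00784, adjusted p = 1). For Alcam it was 0.14 ± 0.50, and for Upk3bl 0.20 ± 1.13. Both sums of a mouse come from the same animal, and a fit with the mouse as a block, added after seeing the data, changed the call. It called 5 genes lower (0.038%) and 0 higher, and these were Ctse, Id3, 4930469K13Rik, Agmo and Kcnq3. Id3 there had -2.40 ± 0.45 (log2, SE, adjusted p = 7.86e-04 by edgeR), Tfap2a -3.40 ± 1.07 (adjusted p = 0.501) and Alcam 0.08 ± 0.28. That fit leaves 2 residual degrees of freedom, and without the block 0 were called.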

How the data were processed

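UMI counts per gene and barcode were deposited as raw matrices of 31053 genes, which per the submitters' processing notes the authors made with Cell Ranger 3.0.2 on mm10. Barcodes were kept as the study describes: the 10000 with most UMIs per library, holding more than 500 but fewer than 4000 genes, of whose UMIs less than 5% were mitochondrial. The members and gene lists were chosen with earlier results of these data known. Members were normalised, reduced to 15 components and clustered at resolution 0.5 (scanpy 1.11.5). A cluster was named when at least 3 markers of a list, without the genes of the rule, were detected in it and more of its 10 leading genes belonged to that list than to others, limits that were set after seeing the data. Doublets were called by comparison with mixed pairs of nuclei and kept in the main analysis.

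UMIs were summed per mouse and tested with edgeR 4.0.16 (TMM, quasi-likelihood, Benjamini-Hochberg adjusted p under 0.05) on genes that reached 10 UMIs in total, without the 10 genes of the rule. DESeq2 1.42.0 was an alternative, and both used R 4.3.3. The fit was checked on drawn counts with 200 genes changed. It recovered 44.5% of them in the members, and 63.0% of those changed at least 4-fold. For the difference from Aqp2-positive nuclei it recovered 15% and 21.9%. Many true changes would thus be missed, and 0 genes called does not show that no gene changed. Shares were compared by an exact permutation test over mice. Levels are UMIs per 1000000 UMIs of the class. Named genes were those of the rule and its markers, Tfap2a, Tfap2b, Wnt9b and Alcam, the 5 with the smallest unadjusted p per direction (since fewer were called), up to 4 per list with most UMIs, and the 15 that most exceeded the Aqp2-positive class (CPM plus 10, at least 50 CPM). Coordinates are those of RefSeq on GRCm38.p6, the assembly of mm10, and all 87 named genes were matched by symbol. The labels number the mice but do not say that a number marks a litter, so p-values measure the spread between 2 mice a group. Alternatives covered normalization, filters, free RNA, doublets, the rule, the clusters and leaving out each mouse.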

Additional observations from a re-analysis of the deposited data

How the results depend on the processing

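The lower share of members in the knockout kept its sign in all 13 alternatives, with log2 ratios from -0.16 (within members and Aqp2-positive nuclei) to -1.87. The ratios without 1 mouse ran from -1.87 to -0.24. As no permutation p could pass 0.05 with 2 mice a group, this says nothing of a call. The groups did not overlap (p = 0.333, exact permutation test) with mitochondrial UMIs under 1%, without Krt7 or without Upk3b. Of 11495 genes 0 were called in either direction, and this held with no TMM, DESeq2, filterByExpr, adjusted p under 0.1, free RNA subtracted, doublets left out, mitochondrial UMIs under 1%, at least 3 of the 7 genes, no UMI of the exclusion genes, the urothelium-like clusters only and without the Cldn10-high cluster. With no filter on low counts 1 gene was lower and 1 higher, and for the difference from Aqp2-positive nuclei 5 differed. Restricted to clusters with Upk1b in at least 20% of nuclei 0 were lower and 3 higher, in cluster 1 alone 1 was lower, and in cluster 2 alone 1 was higher (all added after seeing the data). Without 1 mouse, 0 to 34 were lower and 0 to 19 higher, and for the difference 0 in each case. The cause was not tested. With the replicate number as a block 23 were lower and 23 higher, and 3 differed in the interaction fit. With the mouse as a block (added after seeing the data) 5 differed. The labels do not say that the numbers pair the mice, and the correlation of the deviations of control 1 and knockout 1 was 0.174 over 11495 genes, with only 2 pairs. Snx31 turned from -0.86 to 0.0899 with no UMI of the exclusion genes. Depth limits the members most in knockout 1, with 51 nuclei and 171266 UMIs.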

Other observations

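Single genes of other pathways differed between clusters, while the sums of their lists mostly overlapped. The prostaglandin list was 222 to 548, 245 to 392 and 251 to 836 CPM in clusters 1, 3 and 5, and the retinoic acid list 299.9 to 371 in cluster 3 and 342 to 824 in cluster 2. Aldh1a1, which makes retinoic acid, was at 162 to 445 CPM over the 4 mice in the basal urothelium-like cluster and 0 to 34.3, 19.7 to 57.7 and 18.1 to 71.7 in clusters 1, 3 and 5. In the Heg1-high cluster it was 63.5 to 275, which overlapped with the basal cluster. Ptgs1 (cyclooxygenase 1) was at 114 to 406 in the Heg1-high and 85.9 to 726 in the basal cluster, and in clusters 1 and 3 it had 2 and 1 UMIs in all. The receptor Erbb4 was at 1614 to 2105 in cluster 1 and 11.9 to 251 in cluster 2. Muc1, a membrane mucin, had 286 to 502 in cluster 2, but 2 and 1 UMIs in the 62 and 49 nuclei of the urothelium-like clusters. Wfdc2, an antimicrobial secreted protein, was at 838 to 2328 in the basal cluster and 39.4 to 137 in cluster 1. Its ranges in clusters 2 (863 to 1349) and 5 (597 to 2508) overlapped with the basal cluster. The kidney transcription factors Pax2 and Pax8 stood at 433 to 1327 and 327 to 578 in cluster 1 and at 96.5 to 183 and 22.9 to 108 in the superficial cluster. These are descriptions of clusters made from the same genes, and no test was run.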
